A study of Rattus norvegicus with 16 samples.

Results

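Solute carriers were measured in the left ventricle of rats that had inhaled diesel exhaust (DE) or air, as all Affymetrix Rat 230A probe sets whose single annotated gene carries an Slc symbol with a family number. Slc8a1, Slc25a20, Slc2a1 and Slc2a4, with 6 probe sets, were left out, as were 2 probe sets that list several symbols. This gave 275 probe sets of 224 genes in 48 Slc families, among 15866 probe sets tested, of which 12783 have 1 annotated gene. Slc4a1ap and Slc7a6os only carry the name of a carrier and were counted apart from the substrate groups.

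Male rats 12 to 14 weeks of age made up 4 groups of 4. SH-DE were spontaneously hypertensive (SH) rats that inhaled whole DE at a particle level of 2 mg/m3, and SH-air were SH rats in filtered air. WKY-DE were Wistar Kyoto (WKY) rats, the normotensive control strain, at the same DE level, and WKY-air were WKY rats in air. Exposure ran for 5 days/week over 4 weeks, for 6 hr/day in the sample labels and a shorter time in the study's methods, and portions of left ventricle with septum were frozen 1 day after the last exposure. The series describes the 4 arrays of a group as biological replicates.

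Signals are MAS5 intensities on a linear scale, which the authors scaled to the same trimmed mean of 500.2 on each array. The mean of the array medians was 190.2 in SH-DE, 189 in SH-air, 211 in WKY-DE and 187 in WKY-air. The 5 ventricular markers measured, of 6 listed, had means at or above the 99.8th percentile of all probe sets, and none was called in any comparison. Markers of atrial muscle stood apart. The summed signal of the 4 atrial markers measured, of 5 listed, was 12680 to 33230 in SH-DE, 11860 to 23520 in SH-air, 11550 to 41720 in WKY-DE and 31840 to 94240 in WKY-air. Nppa, the larger part of each sum, was not called. Myl7, Myl4 and Sln were called lower in SH-air than in WKY-air (−7.08, −4.80 and −4.97 log2 units). Myl7, the atrial light chain, was above 2900 on all 4 WKY-air arrays, on WKY-DE replicates 3 and 4 and on SH-DE replicate 3, and at 33.4 to 154 on the SH-air arrays. Of 6 fibroblast markers, 5 were lower in SH-air than in WKY-air and 1 of them fell in WKY-DE relative to WKY-air. Of 3 adipocyte markers measured, the dim Scd was lower in SH-air than in WKY-air (−1.70 log2 units). Fabp4 (0.36) and Plin1 (−0.26) were not called. Of 3 Schwann cell and nerve markers, Sox10 fell in WKY-DE (−1.33), while Th (0.95) and S100b (0.24) were positive there and not called. No marker of endothelium, erythroid cells, smooth muscle, or macrophages and lymphocytes was called. The part of these shifts in the carrier results was not tested, and in tissue RNA fewer cells of a type and less RNA per cell cannot be told apart.

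Solute carriers are membrane proteins that move ions, nutrients and metabolites without spending ATP, either down a gradient or by exchange and cotransport with another ion. Family numbers mark relatedness in sequence and often share a class of substrate. Heart muscle is known for its dense mitochondrial inner membrane carriers, which exchange ADP for ATP and import phosphate, for lactate, creatine, taurine, carnitine and fatty acid uptake at the cell surface, and for the exchangers of sodium, protons, bicarbonate and chloride that hold cell pH. Carriers of bile acids, organic anions and iodide are known from liver, kidney, gut and thyroid.

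Of the 275 probe sets, 137 (49.8%) had a mean signal in the lowest 40% of the array and 74 had a mean below 62.5, the 25th percentile of all signals. The highest signals were those of the adenine nucleotide translocase Slc25a4 and the phosphate carrier Slc25a3 of the mitochondrial inner membrane. Signals were raised by 16.1, the 10th percentile over the arrays, before conversion to log2, so the difference of a dim probe set understates its ratio. Differences are given in log2 units ± SE, with the adjusted p of limma. A probe set was called at a limma adjusted p under 0.05 with an unadjusted p under 0.01. The median SE of a log2 fold change was 0.25 over the carriers and 0.21 over all probe sets. The table used here has no detection calls. Probe sets of different genes cannot be set against each other in level, since each binds with its own efficiency.

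Between WKY-DE and WKY-air, 7 carrier probe sets rose (2.55% of 275, with 1.37% of all probe sets called higher) and 1 fell (0.364%, with 0.511% of all called lower). The 7 were the proton and bicarbonate exchangers Slc9a5 and Slc4a7, the bile acid and organic ion carriers Slc10a1, Slc22a8 and Slc22a23, the fatty acid carrier Slc27a2 and the amino acid carrier Slc7a12. The 1 that fell was the chloride/bicarbonate exchanger Slc26a3. The groups did not overlap for 29 carriers (10.5%), against 12.7% of all probe sets. Without any 1 of 7 arrays, the 4 of WKY-DE and WKY-air 1, 2 and 4, 2 to 4 were called in place of 8, and 5 were called without SH-DE 3 and WKY-DE 3, both high in Myl7.

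The promoters of 4 of these genes are shown because they had the largest rises in WKY-DE (Slc9a5, Slc10a1 and Slc22a8) and the only fall (Slc26a3). Each runs from 250 bases before to 50 bases after the RefSeq start on the GRCr8 build, 5′ to 3′ on the gene's own strand. Slc9a5 lies at chr19:50136490-50136789 on the plus strand, Slc10a1 at chr6:106357895-106358194 on the minus strand, Slc22a8 at chr1:214927034-214927333 on the plus strand and Slc26a3 at chr6:53751165-53751464 on the plus strand. Capitals mark matches on either strand to CACGTG, an E-box, to GCGTG, the core of the aryl hydrocarbon receptor's element, to GTTAAT, the half-site of the liver and kidney factor HNF1, and to TATAAA.
Slc9a5: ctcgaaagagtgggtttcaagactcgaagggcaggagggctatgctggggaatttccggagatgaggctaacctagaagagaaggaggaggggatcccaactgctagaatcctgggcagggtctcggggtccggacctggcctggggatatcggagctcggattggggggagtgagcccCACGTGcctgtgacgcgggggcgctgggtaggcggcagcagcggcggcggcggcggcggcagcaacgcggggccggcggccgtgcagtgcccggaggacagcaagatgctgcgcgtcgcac
Slc10a1: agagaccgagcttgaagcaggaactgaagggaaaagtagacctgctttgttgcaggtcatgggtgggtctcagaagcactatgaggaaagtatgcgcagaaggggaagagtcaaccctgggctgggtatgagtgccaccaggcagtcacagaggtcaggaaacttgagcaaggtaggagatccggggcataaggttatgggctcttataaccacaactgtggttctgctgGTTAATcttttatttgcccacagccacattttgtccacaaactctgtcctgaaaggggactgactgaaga
Slc22a8: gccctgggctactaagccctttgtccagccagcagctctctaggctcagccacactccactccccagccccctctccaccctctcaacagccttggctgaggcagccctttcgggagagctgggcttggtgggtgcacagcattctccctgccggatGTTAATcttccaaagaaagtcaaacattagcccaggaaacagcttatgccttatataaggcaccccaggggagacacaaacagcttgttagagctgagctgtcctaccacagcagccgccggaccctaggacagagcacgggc
Slc26a3: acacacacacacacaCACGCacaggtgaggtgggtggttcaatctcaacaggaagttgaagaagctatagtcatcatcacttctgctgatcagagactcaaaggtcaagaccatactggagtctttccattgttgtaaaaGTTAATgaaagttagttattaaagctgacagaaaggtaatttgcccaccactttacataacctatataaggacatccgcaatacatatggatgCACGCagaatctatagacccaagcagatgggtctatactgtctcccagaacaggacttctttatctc
Promoters were given for 190 of the 224 carrier genes. GTTAAT, chosen after these sequences were seen, stood in 3 of the 6 raised genes with a promoter (Slc10a1, Slc22a8 and Slc7a12), in 6.84% of carrier promoters and in 7.37% of all 27457 promoters of this length. GCGTG stood in 1 of the 6 (Slc22a23), in 45.8% of carrier promoters and in 31.1% of all, and CACGTG in 1 (Slc9a5), in 11.6% of carrier promoters and in 6.65% of all. TATAAA stood in 1 (Slc7a12), in 8.42% of carrier promoters and in 14.3% of all. Slc26a3, which fell, also held GTTAAT and GCGTG. A match is a stretch of letters and not a bound site.

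Among the pH exchangers, Slc9a5, a sodium/hydrogen exchanger best known from brain, had signals of 138, 88.7, 103 and 98.0 in WKY-DE, against 40.4, 18.2, 10.1 and 20.4 in WKY-air. All 4 WKY-DE arrays lay above all 4 WKY-air arrays (1.72 ± 0.29 log2 units, adjusted p = 0.0191). In SH rats the signals were 65.3, 72.6, 51.0 and 29.6 in SH-DE and 97.6, 65.2, 52.8 and 30.2 in SH-air. These overlapped each other widely and lay mostly between both WKY groups (−0.10 ± 0.29 log2 units, adjusted p = 0.985).

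Slc4a7, an electroneutral sodium bicarbonate cotransporter that loads base into the cell, was 486, 476, 789 and 451 in WKY-DE, against 189, 256, 272 and 187 in WKY-air (1.21 ± 0.21 log2 units, adjusted p = 0.0204). WKY-DE replicate 3 was far above the other arrays of its group, and all 4 still lay above WKY-air. The means were 471 ± 102 in SH-DE and 349 ± 62.9 in SH-air (SD, n = 4). The other probe set of this gene had a difference of 0.60, which was not called (adjusted p = 0.101). Without WKY-air replicate 1 the adjusted p was 0.0507.

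Among the bile acid and organic ion carriers, Slc22a8, the organic anion transporter OAT3 of kidney and choroid plexus, had 360.3, 459, 353 and 464 in WKY-DE, against 49.97, 201, 120.4 and 164 in WKY-air (1.62 ± 0.28 log2 units, adjusted p = 0.0205). The lowest WKY-DE array was above the highest WKY-air array by a wide margin. Between them lay the means of 255 ± 56.6 in SH-DE and 257 ± 17.7 in SH-air (SD, n = 4). Without WKY-DE replicate 2 the adjusted p was 0.0558.

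Slc10a1, the sodium-dependent bile acid uptake carrier of hepatocytes, was 55.4, 51.5, 98.5 and 49.4 in WKY-DE, against 5.05, 12.1, 6.76 and 9.18 in WKY-air (1.68 ± 0.34 log2 units, adjusted p = 0.0323). Every WKY-air array lay below the offset, so this difference is damped, and it was 2.80 with an offset of 1 and 0.82 with one of 62.5, called with each. SH-DE ranged over 12.6 to 73.2 and SH-air over 14.8 to 63.0, so both SH groups spanned nearly the whole gap. The call was lost after quantile normalization (1.48, adjusted p = 0.0572) and on leaving out any 1 of 7 arrays, which were the 4 of WKY-DE and WKY-air replicates 1, 2 and 4 (adjusted p 0.0515 to 0.0735).

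Slc22a23, a family member with no settled substrate, averaged 327 ± 34.9 in WKY-DE and 210.2 ± 30.8 in WKY-air (SD, n = 4; 0.61 ± 0.14 log2 units, adjusted p = 0.0398). Its lowest WKY-DE signal was 301 and its highest WKY-air signal 245. A second, dimmer probe set of the gene had a difference of 0.47 that was not called (adjusted p = 0.651). The call was lost after quantile normalization (0.48, adjusted p = 0.111) and without any 1 of 9 arrays, the 8 WKY arrays and SH-DE replicate 1 (adjusted p 0.0512 to 0.0851).

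Over the 18 probe sets for organic ions and bile acids, 14 had a positive DE difference in WKY rats and the median was 0.46, against 0.10 for all probe sets. This was the highest median of the substrate groups, and the 18 include the 3 that were called. After quantile normalization 14 were positive again, with a median of 0.27, against 0.01 for all. For DE in SH rats, after the same normalization, 12 of the 18 were positive, with a median of 0.11, against −0.003 for all. In SH-DE against WKY-DE 15 of the 18 were negative, with a median of −0.40, against −0.09 for all probe sets. After quantile normalization 13 were negative, with a median of −0.25, against −0.01 for all. This strain comparison and that of DE in WKY rats share the WKY-DE arrays. High signals there make the strain difference negative and the DE difference positive at once. Beside the 3 that rose, and chosen after their values were seen, the cation carrier Slc22a2 had 1.20, adjusted p = 0.131, and Slc22a7, an organic anion carrier, had 0.83, adjusted p = 0.151. The carnitine carrier Slc22a5, which heart muscle needs for fatty acid oxidation, averaged 293 ± 47.9 in WKY-DE and 218 ± 54.4 in WKY-air (SD, n = 4; 0.41 ± 0.27 log2 units, adjusted p = 0.403).

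Slc27a2, an acyl-CoA synthetase and fatty acid carrier of liver and kidney, had 288, 293, 173 and 218 in WKY-DE, against 79.7, 57.7, 129.8 and 156 in WKY-air (1.14 ± 0.26 log2 units, adjusted p = 0.0406). The groups did not overlap, but the gap between them was narrow, 173 against 156. Slc27a1, the fatty acid carrier of muscle and fat, averaged 1313 ± 163 in WKY-DE and 1292 ± 92.7 in WKY-air (SD, n = 4; 0.02 ± 0.12 log2 units, adjusted p = 0.956). The Slc27a2 call was lost after quantile normalization (0.97, adjusted p = 0.0644) and without any 1 of 11 arrays (adjusted p 0.0504 to 0.1005), which were the 4 of WKY-DE, WKY-air replicates 1 and 2, SH-DE replicates 1 and 2, and SH-air replicates 1, 2 and 4.

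Slc7a12, a neutral amino acid carrier, had 148, 139.8, 160.0 and 191 in WKY-DE, against 86.3, 63.7, 98.7 and 104 in WKY-air (0.76 ± 0.18 log2 units, adjusted p = 0.0462). All WKY-DE arrays were above all WKY-air arrays, and the means were 148 ± 27.4 in SH-DE and 129.7 ± 30.6 in SH-air (SD, n = 4). This was the call nearest the threshold. It was lost after quantile normalization (0.57, adjusted p = 0.0872) and without any 1 of 12 arrays, the 8 WKY arrays, SH-DE replicates 1 and 4, and SH-air replicates 1 and 4 (adjusted p 0.0512 to 0.107).

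Slc26a3, the chloride/bicarbonate exchanger known from colon, ran the other way. Its signals were 14.6, 16.7, 17.4 and 12.0 in WKY-DE, against 86.3, 18.3, 74.4 and 58.0 in WKY-air (−1.16 ± 0.25 log2 units, adjusted p = 0.0353). WKY-air replicates 1, 3 and 4 were well above WKY-DE and replicate 2 was beside it, and the WKY-DE mean lies below the offset. In SH rats it had 80.0, 85.5, 90.7 and 95.3 in SH-DE and 69.6, 60.9, 69.4 and 76.7 in SH-air. The SH groups did not overlap, but the difference was not called (0.29 ± 0.25 log2 units, adjusted p = 0.901). The WKY call was lost without any 1 of 7 arrays, the 4 of WKY-DE and WKY-air replicates 1, 3 and 4 (adjusted p 0.0575 to 0.0830).

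**Figure D1:**
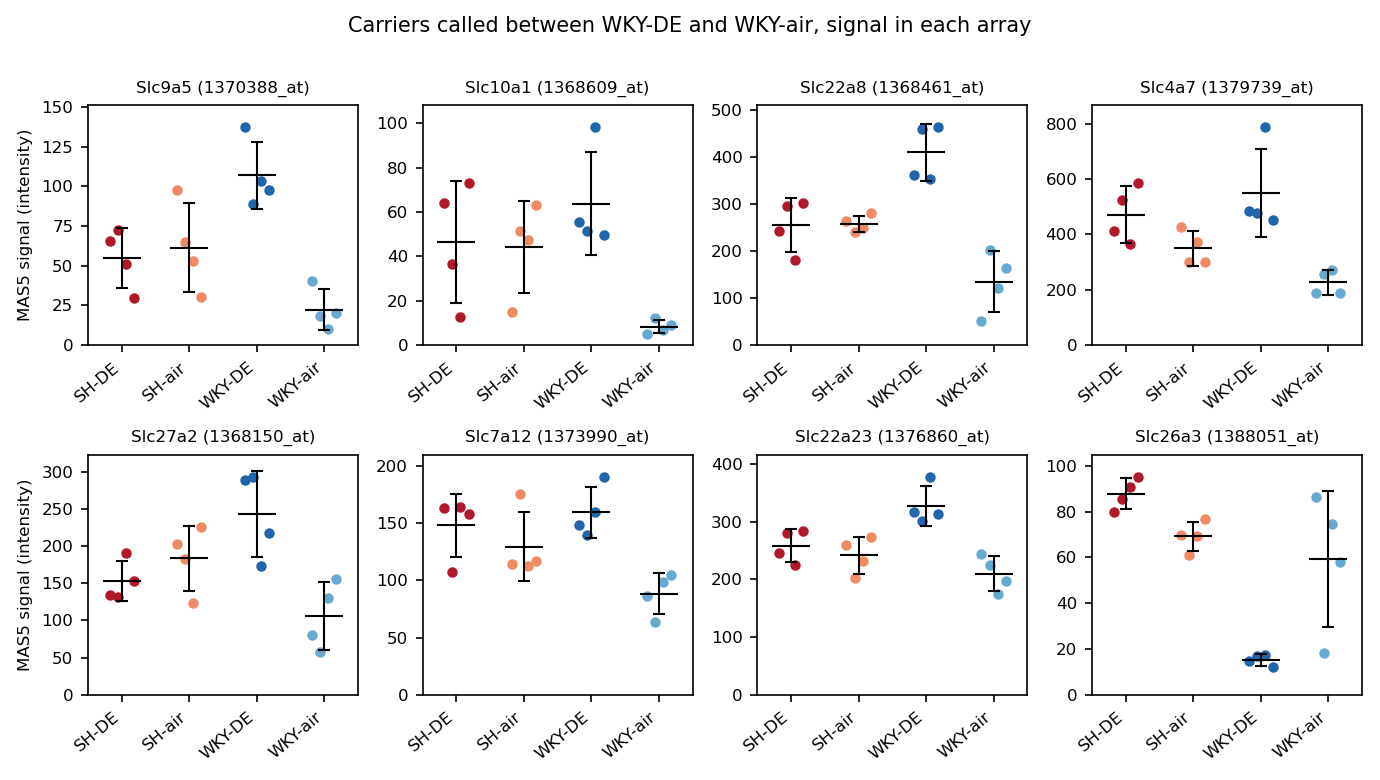
MAS5 signal (linear intensity, vertical axes from 0) of the 8 carrier probe sets called between WKY-DE and WKY-air, in SH-DE, SH-air, WKY-DE and WKY-air. Points are single arrays and bars the group mean ± SD (n = 4). In 7 panels all WKY-DE arrays lie above all WKY-air arrays, and for Slc26a3 the WKY-DE arrays, at 11.96 to 17.4, are the lowest.

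The array scaling bears on these counts. WKY-DE arrays had the highest medians, and 191 of 275 carriers had a positive DE difference in WKY rats, with a median of 0.17, against a median of 0.10 over all probe sets. After quantile normalization 153 were positive, with a median of 0.05, against 0.01 over all. WKY-DE had the highest of the 4 group means for 128 carriers (46.5%, against 39.3% of all probe sets), and for 79 (28.7%, against 26.6%) after quantile normalization. Of the 8 calls, 4 held after quantile normalization, Slc9a5 (1.52, adjusted p = 0.0318), Slc22a8 (1.52, adjusted p = 0.0353), Slc4a7 (1.13, adjusted p = 0.0318) and Slc26a3 (−1.32, adjusted p = 0.0233). With an atrial marker covariate, chosen after the data were seen, none of the 8 was called, and Slc9a5 came nearest with a difference of 1.91 (adjusted p = 0.0625). This covariate, the mean log2 of the atrial markers, was 8.10 to 9.08 in SH-air, 9.12 to 12.9 in WKY-DE and 12.0 to 14.1 in WKY-air. It runs with the groups, so a call lost with it does not show whether atrial tissue had a part.

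In SH rats no carrier was called for DE. Of all probe sets 0 were called higher and 0 lower (0% each), and 16 carriers had an unadjusted p under 0.05 (5.82%, against 6.16% of all probe sets). The groups did not overlap for 12 carriers (4.36%), against 4.08% of all probe sets. The median DE difference was −0.02 over the carriers and 0 calls were made under any of the alternatives. The lowest p, chosen after the values were seen, was that of Slc46a1, the proton-coupled folate and heme carrier, with means of 34.8 in SH-DE and 119 in SH-air (−1.42 ± 0.37 log2 units, adjusted p = 0.628).

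The test of whether DE acted differently in SH and WKY rats called no carrier, with 36 at an unadjusted p under 0.05 (13.1%, against 12.5% of all probe sets). Over all probe sets 0.0063% were called higher and 0% lower in this test. Among members called elsewhere, the lowest p were those of Slc25a48 (−0.90, adjusted p = 0.143), Slc9a5 (−1.82, adjusted p = 0.143), Slc26a3 (1.45, adjusted p = 0.176) and Slc22a8 (−1.66, adjusted p = 0.176). The first pair and Slc22a8 had a lower DE difference in SH than in WKY rats, and Slc26a3 a higher one. So the DE changes in WKY rats were not shown to differ from those in SH rats. Without WKY-air replicate 2, the interaction of Slc26a3 was called.

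**Figure D2:**
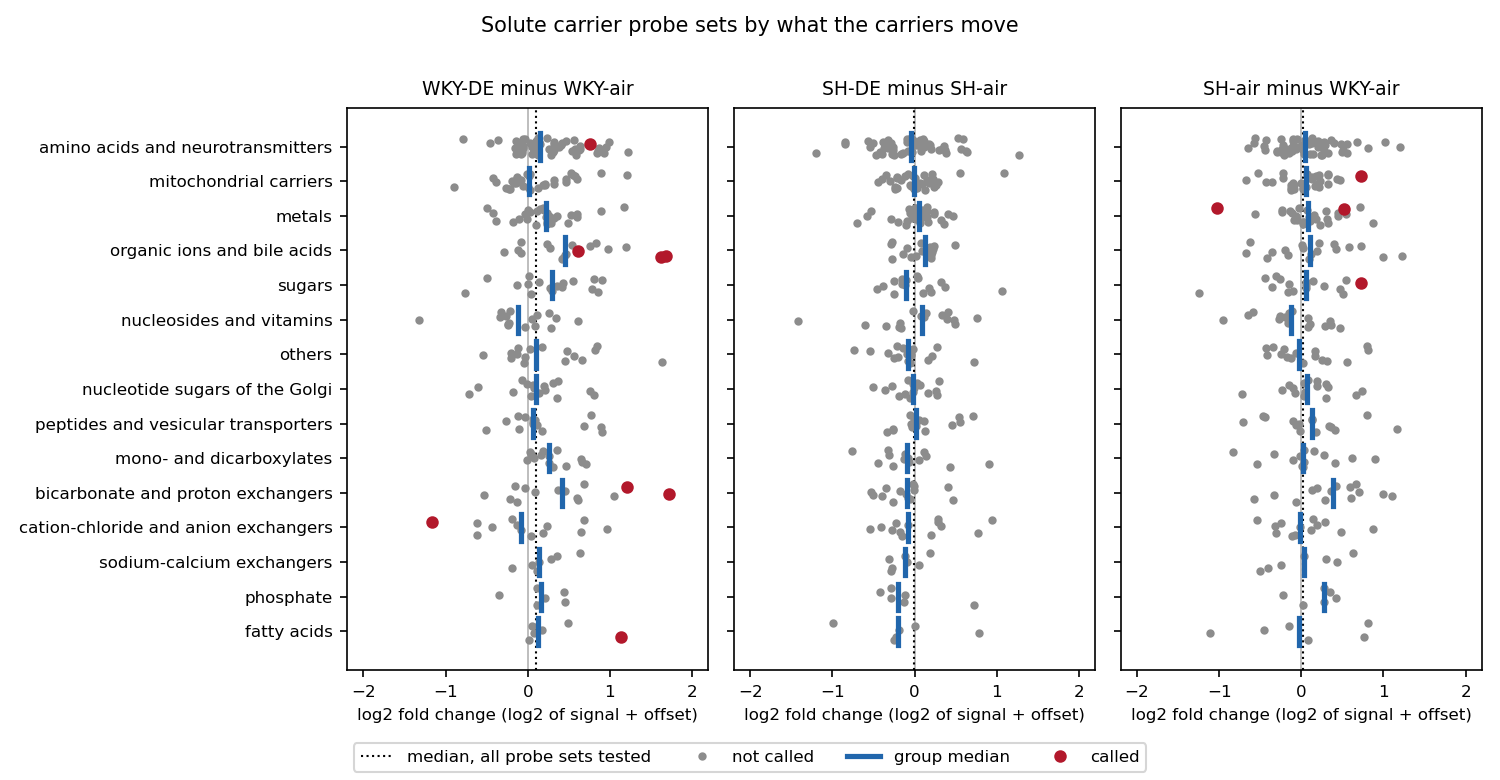
Log2 fold change (horizontal axes, log2 of signal plus offset) of the carrier probe sets by substrate group, for WKY-DE minus WKY-air, SH-DE minus SH-air and SH-air minus WKY-air. Points are probe sets, red ones called, blue bars the group medians, and the dotted line the median of all probe sets tested. Organic ions and bile acids had the highest median in WKY-DE, 0.46, and no probe set is red for SH-DE.

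Between the strains in air, 3 carriers were higher in SH-air (1.09% of 275, with 1.36% of all probe sets called higher) and 1 was lower (0.364%, with 1.79% of all called lower). The groups did not overlap for 28 carriers (10.2%), against 11.3% of all. The 4 were in metal transport (Slc41a3 and Slc40a1), sugar phosphate transport (Slc37a4) and the mitochondrial inner membrane (Slc25a13). All 4 were of middle or high signal, and no call fell among the dimmest 40%. The calls numbered 2 without SH-air replicate 2, WKY-air replicate 3 or WKY-air replicate 4, and 8 without SH-DE 3 and WKY-DE 3.

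Slc41a3, of the magnesium carrier family, had 946, 1126, 1210.5 and 1162 in SH-air, against 2342, 2136, 2343 and 2255 in WKY-air. The WKY-air arrays were all far above the SH-air arrays (−1.02 ± 0.15 log2 units, adjusted p = 0.00259). Under DE the same order held in other rats, 1100.3, 877, 1331 and 1201 in SH-DE against 1918, 1840.1, 1484 and 1265 in WKY-DE, with overlap (−0.52 ± 0.15 log2 units, adjusted p = 0.148). WKY-DE lay below WKY-air, and this DE difference was not called (−0.49 ± 0.15 log2 units, adjusted p = 0.0993). The strain difference in air was called in each alternative except the one with the atrial covariate (−1.13, adjusted p = 0.356).

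Slc40a1, ferroportin, the iron exporter, had 731, 572, 589 and 610.2 in SH-air, against 431, 446, 443 and 403 in WKY-air (0.52 ± 0.11 log2 units, adjusted p = 0.0168). The SH-air arrays were all above the WKY-air arrays. It averaged 593 ± 45.3 in SH-DE and 478 ± 24.98 in WKY-DE (SD, n = 4; 0.30 ± 0.11 log2 units, adjusted p = 0.228). The other probe sets of this gene had differences in air of 0.55 and 0.45, of the same sign and not called. Without WKY-air replicate 4 the adjusted p was 0.0538.

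Slc37a4, which brings glucose-6-phosphate into the endoplasmic reticulum, had 375, 349, 285 and 352 in SH-air, against 195, 207, 143 and 264 in WKY-air (0.73 ± 0.17 log2 units, adjusted p = 0.0300). The groups did not overlap. It averaged 312 ± 57.2 in SH-DE and 273 ± 23.7 in WKY-DE (SD, n = 4; 0.17 ± 0.17 log2 units, adjusted p = 0.705). The call in air was lost without any 1 of 6 arrays, SH-air replicates 1, 2 and 4 and WKY-air replicates 1, 2 and 3 (adjusted p 0.0534 to 0.0792), and with the atrial covariate, where the difference was 0.38 (adjusted p = 0.856).

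Slc25a13, citrin, the mitochondrial aspartate-glutamate carrier best known from liver, had 1380.3, 1866, 2089 and 1585 in SH-air, against 979, 1273, 1103 and 806 in WKY-air (0.73 ± 0.18 log2 units, adjusted p = 0.0436). Its heart counterpart Slc25a12, aralar, averaged 2639 ± 113 in SH-air and 2343 ± 155 in WKY-air (SD, n = 4; 0.17 ± 0.11 log2 units, adjusted p = 0.431). The Slc25a13 call was lost without any 1 of 10 arrays (adjusted p 0.0535 to 0.123), SH-DE replicates 1 and 2, SH-air 2, 3 and 4, WKY-DE 1 and 4, and WKY-air 1, 3 and 4. With the atrial covariate none of the 4 strain calls held, at differences of 0.54 for Slc40a1 and 0.61 for Slc25a13 beside those given for Slc41a3 and Slc37a4. The covariate did not overlap between SH-air and WKY-air, so this fit cannot tell the strain difference from that of the atrial markers.

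Under DE, 1 carrier was higher in SH-DE than in WKY-DE and 1 was lower (0.364% each, with 0.46% of all probe sets called higher and 0.353% lower). The groups did not overlap for 23 carriers (8.36%), against 8.8% of all. Slc26a3, whose 4 SH-DE and 4 WKY-DE signals are given above, had the larger difference (1.73 ± 0.25 log2 units, adjusted p = 0.00278), and this was called in each alternative. In air the groups overlapped and the difference was not called (0.29 ± 0.25 log2 units, adjusted p = 0.593).

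Slc25a48, a carrier of the mitochondrial inner membrane, had 13.5, 6.96, 14.99 and 15.9 in SH-DE, against 22.3, 39.7, 29.5 and 30.7 in WKY-DE (−0.69 ± 0.14 log2 units, adjusted p = 0.0358). All 4 SH-DE signals lay below the offset. With an offset of 62.5, the 25th percentile, the difference was −0.30 and not called (adjusted p = 0.117), and with an offset of 1 it was −1.22. Its second probe set averaged 176 ± 40.9 in SH-DE and 179 ± 26.9 in WKY-DE (SD, n = 4; −0.03 ± 0.44 log2 units, adjusted p = 0.981). The call was lost after quantile normalization (−0.54, adjusted p = 0.125), with trend and robust moderation (adjusted p = 0.181) and without any 1 of 7 arrays, SH-DE 1 and 2, SH-air 3, WKY-DE 2, 3 and 4, and WKY-air 4 (adjusted p 0.0505 to 0.124).

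**Figure D3:**
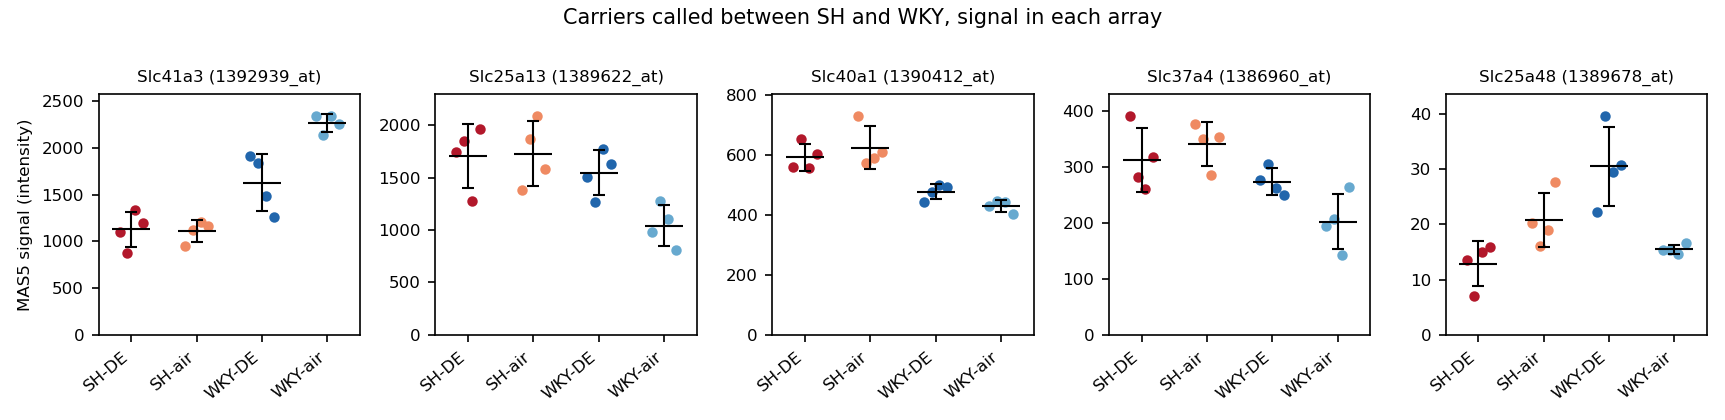
MAS5 signal (linear intensity, vertical axes from 0) of the 5 other carrier probe sets called between the strains, in SH-DE, SH-air, WKY-DE and WKY-air. Points are single arrays and bars the group mean ± SD (n = 4). Slc41a3 averaged 1111 in SH-air and 2269 in WKY-air, while Slc25a48 averaged 12.9 in SH-DE and 30.6 in WKY-DE.

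The strain difference was measured in 2 separate sets of rats, in DE and in air, with no array in common. Over the carriers, 136 of 275 (49.5%) had the same sign under DE as in air, against 53.3% of all probe sets, and Pearson's r across carriers was 0.03, against 0.19 across all probe sets. These are descriptions, since probe sets are not independent replicates. With an unadjusted p under 0.05 in both, 17 carriers were found, 10 with the same sign (58.8%), against 81.8% of 648 probe sets in all.

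The 10 of the same sign were higher in SH for Slc17a7, Slc9a3, Slc16a7, Slc40a1 and Slc38a1, and lower in SH for Slc41a3, Slc4a3, Slc44a2, Slc16a6 and Slc24a3. Of these, Slc41a3 and Slc40a1 were called in air, and none under DE. Members named here were chosen by this pattern, after their values were seen. Slc17a7, a vesicular glutamate transporter, had differences of 1.01 under DE and 1.17 in air. Slc24a3, a potassium-dependent sodium/calcium exchanger, had −0.90 under DE and −0.51 in air, but its second probe set had 0.18 under DE and 0.63 in air. Slc4a3, the anion exchanger AE3 of heart and brain, averaged 812 ± 178 in SH-DE, against 1078 ± 159 in WKY-DE, and 831 ± 72.2 in SH-air, against 1247 ± 95.4 in WKY-air (SD, n = 4 each). It missed the threshold in air (−0.58 ± 0.16 log2 units, adjusted p = 0.0587).

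The 7 of opposite sign were all lower in SH under DE and higher in SH in air. They were Slc9a5, Slc22a8 and Slc27a2, which rose in WKY-DE, with Slc26a1 (a sulfate exchanger), Slc5a5 (the iodide carrier of the thyroid), Slc7a3 (a cationic amino acid carrier) and Slc66a1 (an export carrier of lysosomes). Slc26a1 had means of 99.6 in SH-DE, against 169 in WKY-DE, and 153 in SH-air, against 78.6 in WKY-air. Among these 7, WKY-DE had the highest mean of the 4 groups in each and WKY-air the lowest in all but Slc5a5. The rule that chose them fixes much of this order.

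**Figure D4:**
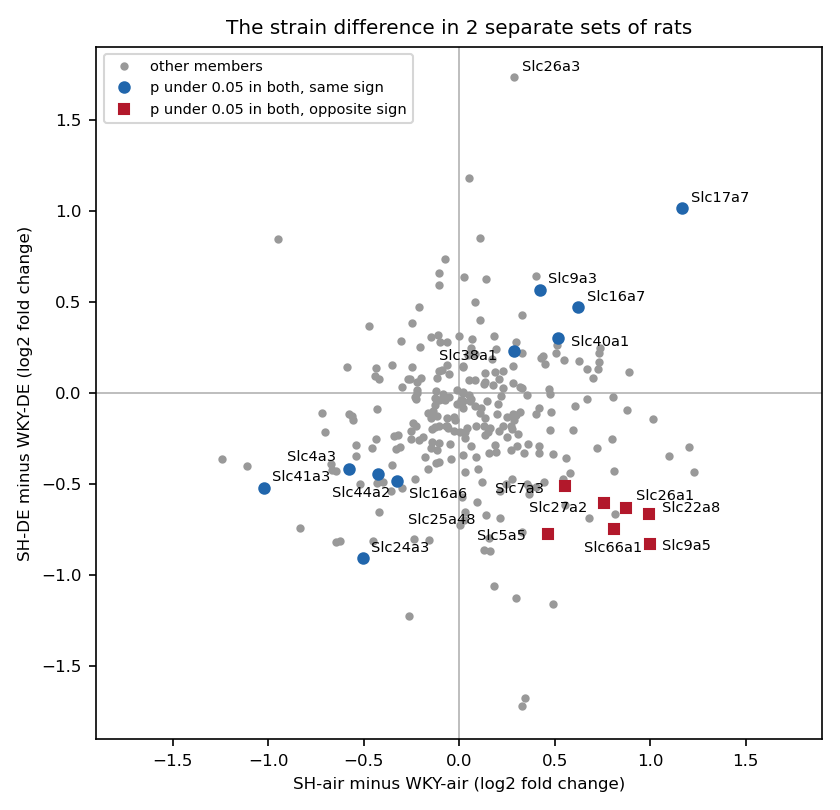
Log2 fold change of SH-DE minus WKY-DE (vertical axis) against SH-air minus WKY-air (horizontal axis) for the 275 carrier probe sets. Blue points are the 10 with an unadjusted p under 0.05 in both and the same sign, red squares the 7 of opposite sign, which all lie at the lower right, and grey points the others.

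No carrier with a known role in heart muscle was called for DE. The list described here held 24 such genes. The only call was that of Slc40a1, between the strains in air. The adenine nucleotide translocase Slc25a4 averaged 36368 ± 7599 in WKY-DE and 48586 ± 8475 in WKY-air (SD, n = 4; −0.43 ± 0.15 log2 units, adjusted p = 0.142), and the phosphate carrier Slc25a3 averaged 29333 ± 3992 in WKY-DE and 35226 ± 4473 in WKY-air (−0.27 ± 0.12 log2 units, adjusted p = 0.241). The oxoglutarate carrier Slc25a11 had −0.23 in SH-DE against SH-air and −0.21 in WKY-DE against WKY-air, with an SE of 0.14.

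At the cell surface, the lactate carrier Slc16a1 averaged 4946 ± 779 in SH-DE, 6089 ± 585 in SH-air, 5624 ± 428 in WKY-DE and 5040.3 ± 738 in WKY-air (SD, n = 4). Its DE difference was −0.31 in SH rats and 0.17 in WKY rats, neither called. The creatine carrier Slc6a8 averaged 1886 ± 395 in SH-DE and 2261 ± 167 in SH-air (SD, n = 4; −0.28 ± 0.15 log2 units, adjusted p = 0.843). The taurine carrier Slc6a6 had −0.42, adjusted p = 0.392 in SH-DE against WKY-DE. The sodium bicarbonate cotransporter Slc4a4 had 0.46, adjusted p = 0.134 in WKY-DE against WKY-air, and its second probe set −0.53. The zinc exporter Slc30a1 had 0.49, adjusted p = 0.126 in the same comparison. In the same comparison the nutrient carriers Slc2a3 (glucose), Slc16a3 (lactate), Slc7a5 and its heavy chain Slc3a2 (large amino acids) and Slc38a2 (glutamine) had 0.36, 0.71, 0.31, −0.05 and −0.05. The metal carriers Slc11a2 and Slc39a14 had 0.10 and 0.33, the phosphate carrier Slc20a1 −0.35, the nucleoside carrier Slc29a1 −0.21, the sodium potassium chloride cotransporter Slc12a2 0.04 and Slc25a5, a second ADP/ATP carrier, −0.13. None of these passed the test. Among the brightest 12 were also Slc12a7, a potassium chloride cotransporter, Slc25a39, a mitochondrial glutathione carrier, and Slc4a1ap, with DE differences in WKY rats of −0.13, −0.19 and 0.03, none called.

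**Figure D5:**
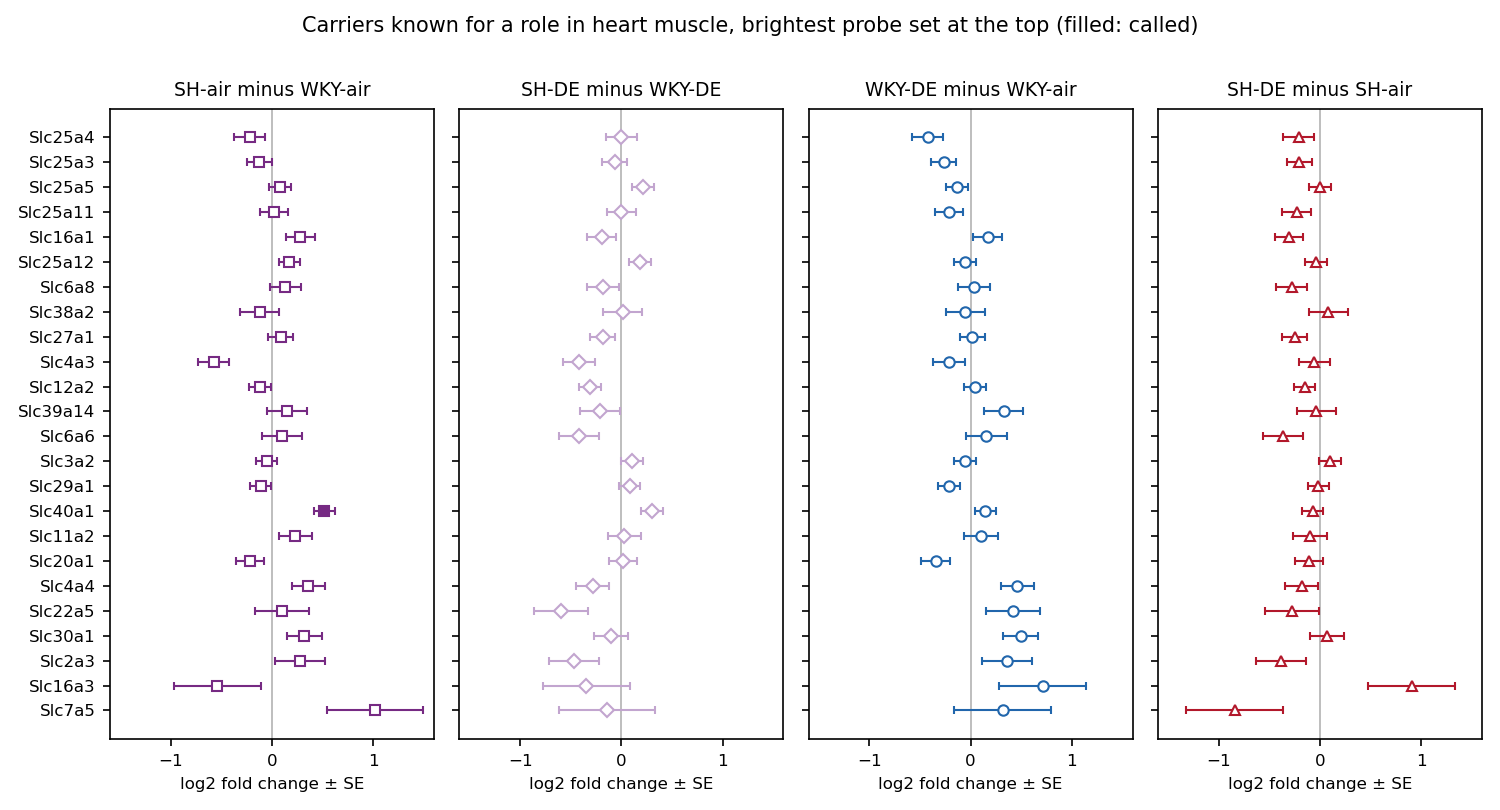
Log2 fold change ± SE (horizontal axes) of 24 carriers with a known role in heart muscle, by the probe set of highest mean, in SH-air minus WKY-air, SH-DE minus WKY-DE, WKY-DE minus WKY-air and SH-DE minus SH-air. Rows run from the brightest probe set at the top to the dimmest, and the filled square, Slc40a1 at 0.52, is the one call.

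By substrate, the 14 probe sets of bicarbonate and proton exchangers stood highest in air, with 11 positive in SH-air against WKY-air and a median of 0.39, against 0.02 for all probe sets. An unadjusted p under 0.05 was found for 8 of the 14 (57.1%, against 17.5% of all probe sets), of which 7, on 5 genes, were higher in SH-air and Slc4a3 was lower, and none was called. Under DE 3 of the 14 were positive, with a median of −0.20, against −0.09 for all. After quantile normalization these medians were 0.39 in air and −0.09 under DE. The 3 negative ones in air included AE3, and in WKY-DE against WKY-air 9 of the 14 were positive, with a median of 0.41 (0.30 with 8 positive after quantile normalization). The strain difference in air and this DE difference are both taken against the same WKY-air arrays. Low signals there raise both, so they are not separate observations. The 53 probe sets for amino acids and neurotransmitters had 1 call in WKY-DE and medians between −0.18 and 0.15 in the strain and DE comparisons, and the 20 of the neurotransmitter family Slc6 had none.

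The 32 mitochondrial carriers, all of family Slc25, had medians of 0.00 in SH-DE against WKY-DE, 0.06 in SH-air against WKY-air, 0.02 for DE in WKY rats and 0.00 for DE in SH rats. Beside Slc25a13 and Slc25a48 none was called, nor were any of the 16 probe sets for nucleotide sugars, the 16 for nucleosides and vitamins, the 15 for peptides and vesicle loading, the 14 for mono- and dicarboxylates, the 7 for sodium/calcium exchange or the 6 for phosphate. In these groups the lowest p in air belonged to Slc35b1 (0.74, adjusted p = 0.0894), Slc29a3 (−0.95, adjusted p = 0.244), Slc15a3 (−0.70, adjusted p = 0.101), Slc16a7 (0.62, adjusted p = 0.137), Slc24a3 (−0.51, adjusted p = 0.266) and Slc20a2 (0.42, adjusted p = 0.151). In the groups of other substrates and of genes named after a carrier it was that of Slc49a4 (−0.34, adjusted p = 0.161) and Slc7a6os (0.48, adjusted p = 0.241), and none was called there either. In the metal group of 30 probe sets 23 had a positive DE difference in WKY rats, with a median of 0.22, against 0.10 for all probe sets. After quantile normalization 21 were positive, with a median of 0.07, against 0.01 for all. All 6 for fatty acids, on 5 genes, were negative in SH-DE against WKY-DE, with a median of −0.50, against −0.09 for all probe sets. After quantile normalization all 6 were negative again, with a median of −0.40, against −0.01 for all. They include Slc27a2, which rose in WKY-DE.

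Several carriers have more than 1 probe set, 38 genes with 89 in all. All probe sets of a gene had the same sign in 17 of the 38 genes for the strain difference in air, 27 for that under DE, 26 for DE in WKY rats and 15 for DE in SH rats. Random signs would also agree in some of the genes, and that share was not computed. Carriers outside the Slc names, and partner proteins, were listed as well, with 42 of 51 measured. In air, Aqp7, a glycerol channel, was higher in SH (0.50, adjusted p = 0.0359), and Slco2a1, a prostaglandin carrier (−1.73, adjusted p = 0.0168), and the ABC exporters Abcb1a (−0.64, adjusted p = 0.0191) and Abcc1 (−0.61, adjusted p = 0.0381) were lower. Bsg, basigin, the partner that brings lactate carriers to the surface, fell in WKY-DE, at 5549 ± 695 against 8464 ± 912 in WKY-air (SD, n = 4; −0.61 log2 units, adjusted p = 0.0462). None of the 42 was called for the strain difference under DE, for DE in SH rats or for the interaction.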

How the data were processed

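Left ventricular RNA of 16 rats was hybridized to Rat 230A arrays. The deposited values are intensities (signals), which the authors computed with MAS5 (version not given) and scaled per array. The study's own RMA values were not used here. Of 15923 probe sets, 57 controls were left out. Signals plus 16.1, the 10th percentile, were converted to log2. Group means were fitted in 1 model with limma 3.58.1 in R 4.3.3 (12 residual and 2.68 prior degrees of freedom), with Benjamini-Hochberg adjustment over 15866 probe sets. The calculation was tested on simulated data. Carriers were named through the platform annotation, with an Entrez match in RefSeq for all 275.

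Named were all called members, the 12 of highest mean signal, 24 listed genes of heart muscle, and in each substrate group without a call the member of lowest p in air. The members and lists were chosen with earlier results of these data known. The sample labels do not say whether replicate numbers pair rats across groups, and the main fit treated the rats as unpaired. Alternatives were offsets of 1 and 62.5, quantile normalization, leaving out the dimmest 40%, trend and robust moderation, array weights, the compared groups alone, a replicate block, an adjusted p under 0.01 and leaving out each array. An atrial marker covariate and leaving out SH-DE 3 with WKY-DE 3 were added after seeing the data. The number of arrays limits the precision, and strain variants under the probes were not looked for.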

Additional observations from a re-analysis of the deposited data

Results flagged for a closer look

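Among the 47 carriers named, 188 groups of 4 arrays were looked at for 1 array far from the other 3, and 7 (3.72%) had one, where chance marks about 1 in 20 such groups. For Slc10a1, WKY-DE replicate 3 was at 98.5, above 49.4 to 55.4 in the other arrays of its group. For Slc4a7, the same array was at 789, above 451 to 486. For Slc20a2, a phosphate carrier, it was at 402, below 612 to 642. For Slc38a2, a glutamine carrier, WKY-DE replicate 4 was at 1179, below 1732 to 1840. For Slc7a12, SH-DE replicate 2 was at 107, below 158 to 164, and SH-air replicate 2 was at 176, above 112 to 117. For Slc24a3, WKY-air replicate 2 was at 323, above 212 to 218. WKY-DE replicate 3 accounts for 3 of the 7 and had a Myl7 signal of 9629.5, against 404 to 2927 on the other WKY-DE arrays, whose part was not tested.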

How the results depend on the processing

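Carrier calls were 4 for strain in air, 2 for strain under DE, 8 for DE in WKY rats, 0 for DE in SH rats and 0 for the interaction. For strain in air they became 8 without the dimmest 40%, 7 with trend and robust moderation, 1 with the compared groups alone, 1 at an adjusted p under 0.01, 0 with the atrial covariate and 8 without SH-DE 3 and WKY-DE 3. Leaving out 1 array gave 2 to 6, the 2 without SH-air 2, WKY-air 3 or WKY-air 4. For strain under DE they became 4 with trend and robust moderation, 7 with array weights and 1 at an adjusted p under 0.01. Leaving out 1 array gave 1 to 5, with 1 call without SH-DE 1 or 2, SH-air 3, WKY-DE 2, 3 or 4, or WKY-air 4, 4 without SH-DE 4 or WKY-air 2, and 5 without SH-DE 3. For DE in WKY rats they became 4 after quantile normalization, 2 with the compared groups alone, 0 at an adjusted p under 0.01, 0 with the atrial covariate and 5 without SH-DE 3 and WKY-DE 3. Leaving out 1 array gave 2 to 9, with 2 without WKY-DE 2 or WKY-air 1, 3 without WKY-DE 1 or 4, and 4 without WKY-DE 3, WKY-air 2 or WKY-air 4. The interaction had 0 to 1, the 1 being Slc26a3 without WKY-air 2. With the replicate block 3, 1, 3, 0 and 0 were called, though same-numbered arrays did not deviate together (correlations −0.096 to 0.053). Quantile normalization turned the split for strain under DE from 1 higher and 1 lower into 3 higher and 0 lower. Of the 14 called values of named carriers, 0 changed sign under any of 27 alternatives. Of the 221 values not called in the main setting, 13 were called under some alternative, none with the opposite sign. Changes of sign without a call were not counted for these 221. With an offset of 62.5 the differences of Slc9a5 (1.00) and Slc26a3 (−0.61 for DE in WKY rats, 0.95 for strain under DE) were smaller and still called. The cause of these shifts was not tested.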
